A study of Mus musculus with 8 samples.

Results

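Foxp3, Runx1, Runx2, Runx3 and Cbfb encode the transcription factor that defines regulatory T (Treg) cells and the Runx-Cbfb complexes that act with it. The members were the table rows with these 5 symbols, taken by name and not by their values, 5 of 52459 genes listed. All 5 passed the filter on low values, a mean over libraries of 10 normalized counts or more, which left 15419 genes for the tests.

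The study asked how the calcium sensors STIM1 and STIM2, which open the CRAC channels, shape gene expression of Treg cells, and sequenced RNA of 8 libraries, 2 in each of 4 groups. C57BL/6 Treg cells with the label WT, or with a genotype given as Stim1 fl/f and Stim2 fl/fll (floxed alleles, spelled as in the labels) with Foxp3-YFPcre, were left unstimulated or stimulated for 16 h with 1 µg/ml of plate-bound anti-CD3/CD28. By the methods both genotypes were sorted from spleen and lymph nodes of female heterozygous Stim1/2 floxed Foxp3-YFPcre mice, each sample being a pool of animals, as CD4+CD25hi YFPcre- cells (WT) and CD4+CD25hi YFPcre+ cells (Stim1/2-deficient). The floxed alleles were therefore present in both groups, and Cre, driven by Foxp3 itself, in one.

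This design touches Foxp3 directly. Foxp3 lies on the X chromosome, where each cell of a female uses 1 of its alleles, so the YFPcre+ cells carried the reporter allele in use and the YFPcre- cells the other one. Loss of Stim1 and Stim2, the YFPcre insertion at Foxp3 and the sort on Foxp3-driven YFP therefore cannot be told apart for any difference between the genotypes. The WT gate rested on CD25 without a Foxp3 reporter. All unstimulated libraries came from one sequencing lane and all stimulated ones from another, so stimulation and lane cannot be told apart either.

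Foxp3 is a forkhead factor that Treg cells need throughout life to keep their gene expression and their suppressive function. Runx1, Runx2 and Runx3 bind DNA through a shared Runt domain, and Cbfb, which does not contact DNA, is their common partner and raises their affinity. In Treg cells Runx-Cbfb complexes bind regulatory elements of the Foxp3 gene and help to maintain its expression, Runx1 also binds the Foxp3 protein, and NFAT, the factor that calcium activates through calcineurin, acts at Foxp3 as well.

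The genes are given on GRCm38.p6, the assembly (mm10) named in the submitters' processing notes. Foxp3 spans chrX:7579676-7595243 on the plus strand, Runx1 chr16:92601466-92826074 on the minus strand, Runx2 chr17:44495987-44814797 on the minus strand, Runx3 chr4:135120645-135177990 on the plus strand and Cbfb chr8:105170674-105217989 on the plus strand. The first RefSeq promoters of the 3 Runx genes are shown where they shared a stretch of 18 bases, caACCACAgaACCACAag, which holds 2 Runx motifs in capitals (ACCACA, the reverse complement of TGTGGT, searched on both strands).
Runx1 (chr16:92826025-92826054, minus strand): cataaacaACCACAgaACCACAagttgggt
Runx2 (chr17:44814583-44814612, minus strand): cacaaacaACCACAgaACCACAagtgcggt
Runx3 (chr4:135120503-135120532, plus strand): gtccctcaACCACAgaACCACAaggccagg
The stretch lay after the annotated start in Runx1 and Runx2 and before it in Runx3. Of 32851 RefSeq promoter windows of 300 bases (250 before and 50 after the start), 4 held it, those of Runx1, Runx2 and Runx3 and that of Gm16225, whose window covers the same bases as the Runx3 promoter on the other strand. A single Runx motif was found in 16.8% of all windows. The Runx2 window counts from a transcript start at 44814627, which lies inside the gene span given above. It held another Runx motif upstream of the shared stretch and also inside that span, in capitals here.
Runx2 (chr17:44814690-44814719, minus strand): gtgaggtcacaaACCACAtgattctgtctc
The windows at the second promoters of Runx1 and Runx3, both Foxp3 windows and the Cbfb window held no Runx motif. The 250 bases before the first Foxp3 start are shown because the reporter allele expresses Cre from the Foxp3 gene, with a match to the NFAT core (GGAAA or TTTCC, found in 61.3% of windows) in capitals.
Foxp3 (chrX:7579426-7579675, plus strand): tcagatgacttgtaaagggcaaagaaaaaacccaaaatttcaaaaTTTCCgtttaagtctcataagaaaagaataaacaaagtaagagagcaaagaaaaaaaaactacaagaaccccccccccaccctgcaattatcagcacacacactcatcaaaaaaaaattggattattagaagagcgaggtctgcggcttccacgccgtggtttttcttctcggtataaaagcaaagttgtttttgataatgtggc
A forkhead motif (TGTTTAC or GTAAACA, in 3.65% of windows) was found in none of the 8 windows of the 5 genes. These are matches of letters, and binding was not measured.

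Libraries held 11851853 to 16306540 reads. The targeted genes did not follow the labels in these counts. Stim1 had 1139 and 1377 normalized counts (reads divided by 1 size factor per library) in unstimulated WT and 1538 and 1868 in unstimulated libraries labelled Stim1/2-deficient, then 645 and 673 against 552 and 642 in stimulated ones. Stim2 had 906 and 908 against 904 and 744, and 665 and 782 against 620.2 and 696. No difference of either gene passed the limma test (adjusted p = 0.236 for Stim1 and 0.721 for Stim2 unstimulated, 0.807 and 0.827 stimulated). Counts per gene do not show which exons the reads cover, so in these counts the genotype stands on the labels. The paper reported loss of both transcripts by RT-PCR in Treg cells of male mice. In YFP+ Treg cells of female heterozygous mice it reported a lack of calcium entry after store depletion. The libraries held T cell transcripts throughout. The 9 T cell and Treg markers, Foxp3 among them, summed to 91386 to 98789 normalized counts in unstimulated WT and 44299 to 52845 in the labelled libraries. All 9 were lower, and Ctla4, Ikzf2 and Tnfrsf18 were called lower, where 3.35% of all genes were. Ctla4, the most abundant in WT, had 37403.5 and 35119 against 6338 and 17333. Cd3e had 3424 and 3294 against 3042 and 3156. Markers of other cells moved with genotype in unstimulated cells. The 12 myeloid markers summed to 456 and 474 in WT, with C1qa at 0 in both, and to 10382 and 1693 in labelled replicates 1 and 2, and the 10 B cell markers to 352 and 383 against 3805 and 924. Of these, 7 myeloid and 2 B cell markers were called higher. The 8 CD8 T and NK cell markers, at 515 and 495 against 1534 and 438, gave no call. Stimulated WT and labelled libraries held 333 and 203 against 457 and 366 myeloid counts, with C1qa and Mrc1 at 0 in all 4. They held 1106 and 234 against 1646 and 350 B cell counts and 1378 and 612 against 1980.4 and 379 CD8 T and NK cell counts, and no marker was called. The 9 erythroid and megakaryocyte markers listed summed to 48.6 to 214 over the 8 libraries, and none of the 3 tested was called between genotypes. The part of such cells in the results was not tested, and in bulk RNA fewer cells of a type cannot be told from less RNA per cell.

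Foxp3 was the most abundant of the 5 in every group. Unstimulated WT cells held 10000.5 and 8159 normalized counts, and unstimulated labelled cells 4947 and 4258. After stimulation WT cells held 8525 and 11918 and labelled cells 4474 and 7253. Labelled libraries lay below WT libraries within each state, as did 27.1% of all genes in unstimulated and 23.1% in stimulated cells. The difference in log2 was -0.98 ± 0.26 (SE, limma) in unstimulated cells, 1.97-fold lower, and -0.82 ± 0.26 in stimulated cells, 1.77-fold lower, with adjusted p = 0.0591 and 0.177, so neither passed the threshold of 0.05 over all genes tested. The call at Foxp3 in unstimulated cells turned on the method, with adjusted p = 0.0775 in edgeR and 0.00875 in DESeq2, which called 2.29% and 5.51% of all genes lower. The mean of both genotype contrasts, chosen after seeing the data, was -0.90 ± 0.18 and passed (limma, adjusted p = 0.0154), with 5.45% of all genes called lower in that contrast.

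Foxp3 relative to Cd3e, a subunit of the T cell receptor complex, does not depend on how libraries are scaled. The ratio of counts was 2.92 and 2.48 in unstimulated WT and 1.63 and 1.35 in unstimulated labelled libraries. In stimulated cells it was 3.19 and 4.08 in WT against 1.78 and 2.89. Labelled libraries lay below WT in both states, and Cd3e itself was 1.08- and 1.11-fold lower there, without passing the test. Stimulation left no called change of Foxp3, at 0.16 ± 0.26 in WT and 0.31 ± 0.26 in labelled cells (log2, limma, adjusted p = 0.689 and 0.393). The groups before and after stimulation overlapped in both genotypes.

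**Figure D1:**
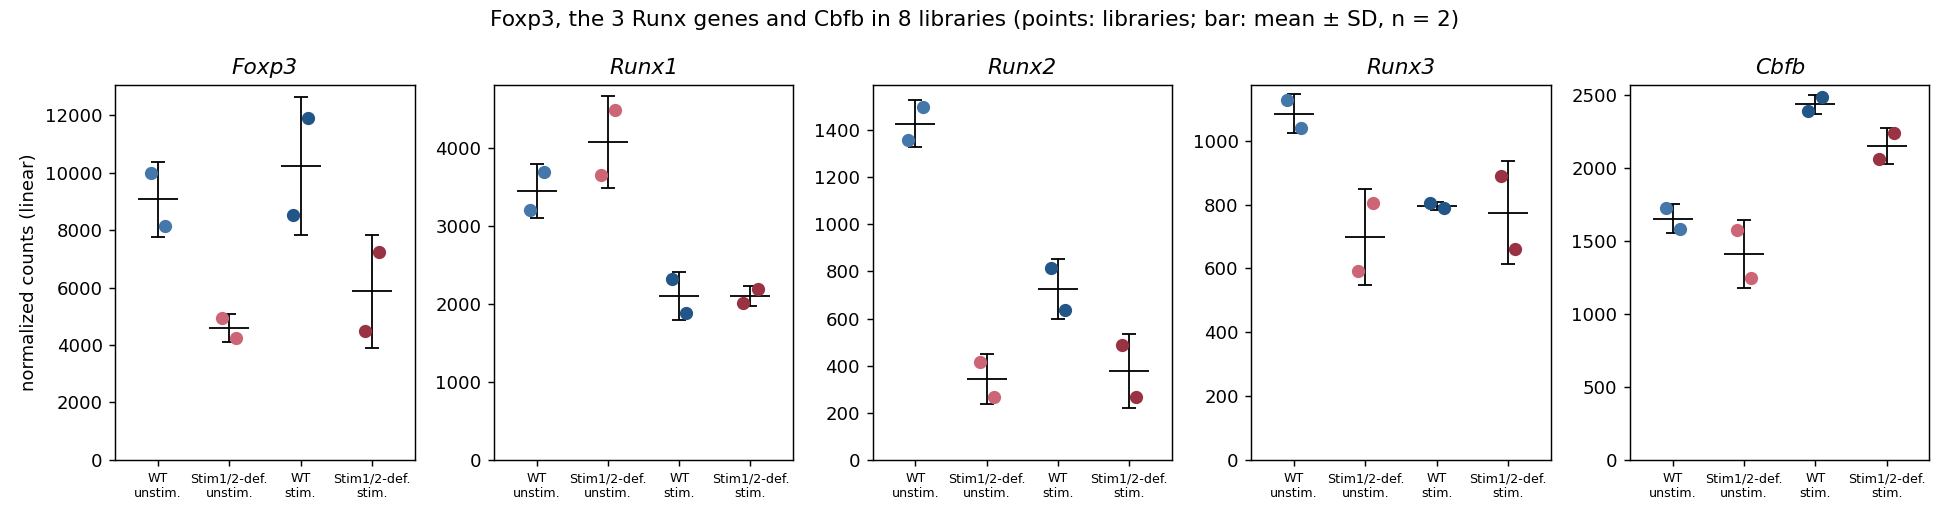
Normalized counts (y axis, linear, from 0) of Foxp3, Runx1, Runx2, Runx3 and Cbfb in the 4 groups (x axis). Points are libraries, and bars give the mean ± SD of 2 libraries. Labelled libraries lie below WT for Foxp3 and Runx2 in both states, Runx1 is lower and Cbfb higher after stimulation, and Runx1 overlaps between the genotypes in both states.

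The locus around Foxp3 held a further difference. Ccdc22, on the opposite strand, overlaps the last 1435 bases of Foxp3, the end in which the reporter of this allele sits. It had 42.1 and 66.5 normalized counts in unstimulated WT and 1.05 and 1.34 in labelled libraries, that is 84 reads in all against 2. The ratio of WT to labelled libraries was 44.6, with an exact 95% interval of 11.97 to 374 that covers counting error only, and the difference was called (limma, adjusted p = 0.0402). In stimulated cells Ccdc22 had 23.4 and 26.6 against 11.1 and 0, apart between the groups but not called (limma, adjusted p = 0.255). Flicr, a long non-coding RNA on the same strand that overlaps the first 1341 bases of Foxp3, was not called in either state, with 450.0 and 499 against 303 and 477 unstimulated and 532 and 596 against 481 and 801 stimulated. Of the other genes within 100000 bases that were tested (Ppp1r3f, Syp, Prickle3 and Plp2) none was called, with adjusted p from 0.280 to 0.847 over both states (limma). Whether counting used strand is not given in the sources used here, so reads where Foxp3 and Ccdc22 overlap cannot be assigned, and the part of the reporter allele in the Ccdc22 values cannot be told apart from the genotype.

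**Figure D2:**
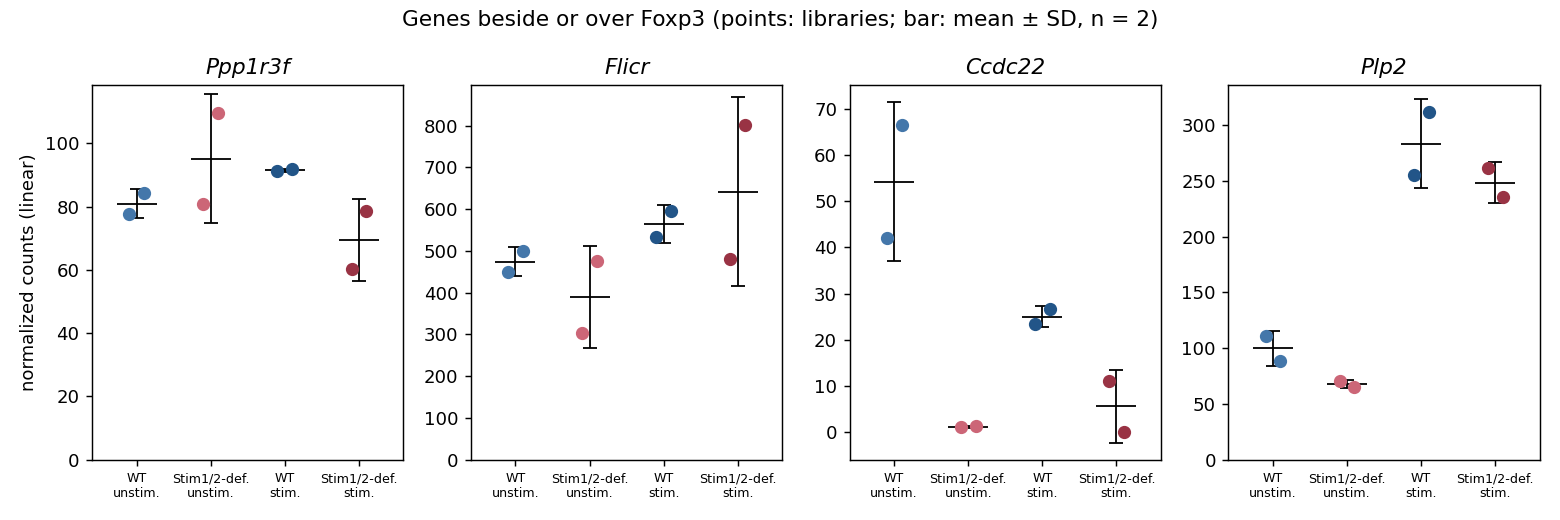
Normalized counts (y axis, linear) of Ppp1r3f, Flicr, Ccdc22 and Plp2, 4 genes beside or over Foxp3, in the 4 groups (x axis). Points are libraries, and bars give the mean ± SD of 2 libraries. Ccdc22 is near 0 in both unstimulated labelled libraries, at 1.05 and 1.34, and Ppp1r3f, Flicr and Plp2 were not called in either state.

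Runx2 was the Runx gene called between the genotypes. Unstimulated WT libraries held 1356.5 and 1498 normalized counts and labelled ones 417 and 267. Stimulated WT libraries held 816 and 636 and labelled ones 488 and 267. The span between the highest and the lowest library, 5.61-fold, was the widest of the 5 genes.

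In unstimulated cells Runx2 was 4.26-fold lower in labelled libraries (log2 -2.09 ± 0.32, limma, adjusted p = 0.0105), and edgeR and DESeq2 called it too. It was the 1 member called of 5 in this contrast, in which 3.35% of all genes were called lower and 1.38% higher. The call was lost without WT replicate 3 or WT replicate 4 (limma, adjusted p = 0.161 and 0.082), fits in which 8 and 23 genes in all were called, and the fold stayed at -1.77 or below in log2 with any library left out. Libraries did not overlap between genotypes for 4 of the 5 genes, all lower (Foxp3, Runx2, Runx3 and Cbfb), where 27.1% of all genes did so in that direction.

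In stimulated cells Runx2 was 1.99-fold lower (log2 -0.995 ± 0.316, limma, adjusted p = 0.187) and not called. None of the 5 genes was called there, against 0.11% of all genes called lower and 0.162% higher. At an unadjusted p under 0.05 the limma test listed Foxp3 and Runx2 and 13.7% of all genes, and neither edgeR nor DESeq2, which called 0.00649% and 3.95% of all genes, called any of the 5. Foxp3, Runx2 and Cbfb did not overlap between the genotypes, all lower, as did 23.1% of all genes. The difference between both genotype contrasts of Runx2 was 1.10 ± 0.45 (limma, unadjusted p = 0.034, adjusted p = 0.58), so the smaller fold after stimulation was not shown to differ. No gene passed the limma or the edgeR test for that difference (0% called), with 8.15% of genes at an unadjusted p under 0.05 in limma. DESeq2 called 50 genes (0.337%), none of them a member.

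Runx1, which also binds the Foxp3 protein, had 3210.5 and 3699 normalized counts in unstimulated WT and 3662 and 4499 in labelled libraries. Stimulated WT libraries held 2326 and 1891 and labelled ones 2011 and 2194. The genotypes overlapped in both states, and the log2 differences were 0.24 ± 0.19 and 0.00 ± 0.19 (limma, adjusted p = 0.51 and 0.999). Runx3, the Runx gene best known for CD8 T cell genes, had 1128 and 1041 in unstimulated WT against 592 and 804, and 805 and 788 in stimulated WT against 890.2 and 660.2. The unstimulated groups stood apart at -0.65 ± 0.23 without passing the test (limma, adjusted p = 0.127), and the stimulated ones overlapped. Cbfb, the common partner, had 1721 and 1584 against 1573 and 1246 unstimulated and 2390.4 and 2482 against 2059.8 and 2236 stimulated. Its labelled libraries were lower in both states by -0.24 ± 0.18 and -0.18 ± 0.18 in log2 (limma, adjusted p = 0.486 and 0.722), and neither passed.

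Between unstimulated and stimulated libraries, which also differ in lane, limma called Runx1 in both genotypes, Runx2 in WT and Cbfb in labelled cells. Runx1 fell in both genotypes, by 0.72 ± 0.19 in WT and 0.95 ± 0.19 in labelled cells on the log2 scale (limma, adjusted p = 0.0224 and 0.00634), 1.64- and 1.93-fold lower. Runx2 fell in WT, 1.98-fold lower at -0.98 ± 0.32 (limma, adjusted p = 0.0475), and stood at 0.11 ± 0.32 in labelled cells (adjusted p = 0.821). Cbfb rose 1.53-fold in labelled cells (limma, 0.62 ± 0.18, adjusted p = 0.0325). In WT it was 1.47-fold higher with adjusted p = 0.0487, under the 1.5-fold threshold. The difference between both stimulation contrasts of Cbfb was 0.06 ± 0.26 in log2 (limma, adjusted p = 0.968), so the genotypes were not shown to differ. Runx3 stood at -0.44 ± 0.23 and 0.15 ± 0.23 and was not called in either genotype (limma, adjusted p = 0.18 and 0.652). Of the 5 genes 2 were called lower in WT, where 13.1% of all genes were called lower and 10.2% higher, and 1 lower and 1 higher in labelled cells, where these shares were 12% and 13%. The libraries before and after stimulation stood apart for Runx1, Runx2, Runx3 (lower) and Cbfb (higher) in WT, against 36% of all genes lower and 35% higher, and for Runx1 and Cbfb in labelled cells, against 30.6% and 30.8%. With libraries scaled to equal totals, which moved the median of all genes by 0.51 in WT and 0.38 in labelled cells, Cbfb alone of the 5 was called in each genotype. Equal upper quartiles moved that median by -0.13 and -0.41. Under that scaling Runx1 alone of the 5 was called in each genotype (limma, adjusted p = 0.0156 in WT and 0.00124 in labelled cells). Each of the WT calls was also lost without any 1 of the 4 libraries, and the labelled Cbfb call without labelled unstimulated replicate 2 or either labelled stimulated replicate.

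**Figure D3:**
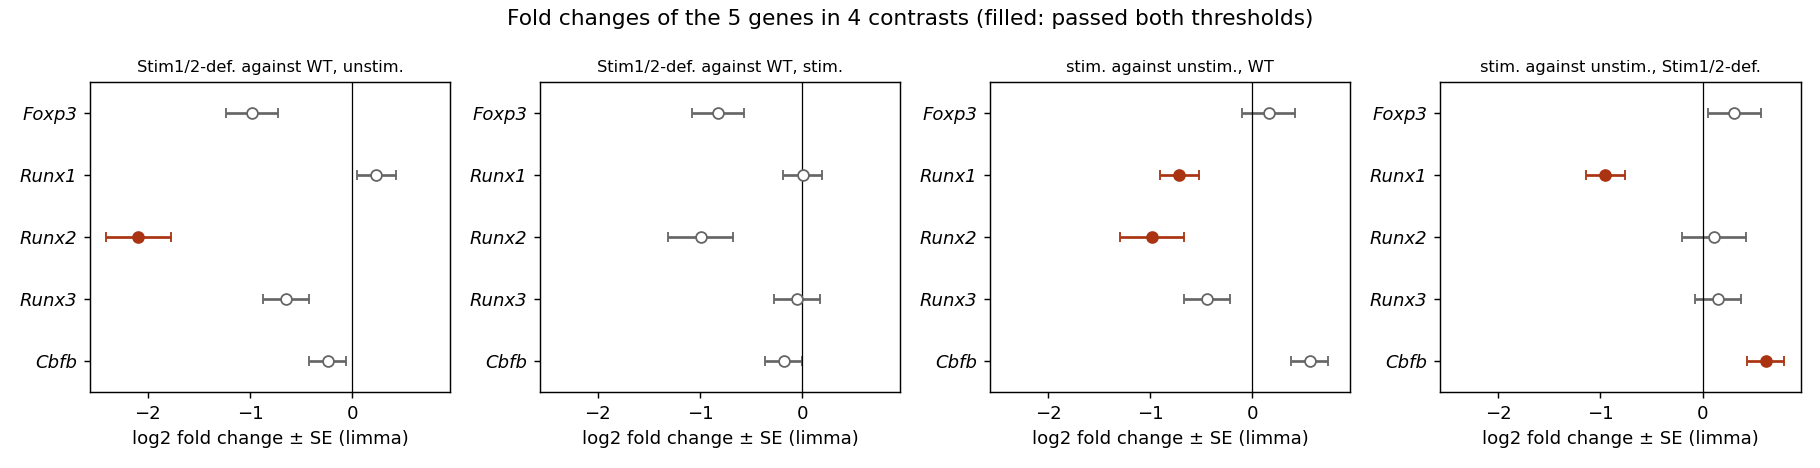
Log2 fold changes (x axis) of the 5 genes (y axis) in the 2 genotype and the 2 stimulation contrasts. Points are limma estimates with their SE, and filled points passed an adjusted p of 0.05 and a 1.5-fold threshold. Runx2 is the only filled point in unstimulated cells, at -2.09, and no point is filled between the genotypes in stimulated cells.

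Levels of different genes were compared per kb of exon, with the exon lengths of the GENCODE M1 annotation. In unstimulated WT cells Foxp3 stood at 2297 ± 329.5 normalized counts per kb (SD, n = 2), Cbfb at 568 ± 33.45, Runx1 at 443 ± 44.3, Runx3 at 217 ± 12.2 and Runx2 at 161 ± 11.3. The libraries of neighbours in this order did not overlap. In unstimulated labelled cells the order was Foxp3 (1164 ± 123), Runx1 (523 ± 76.0), Cbfb (484 ± 79.4), Runx3 (139.6 ± 29.9) and Runx2 (38.7 ± 12.02), and Runx1 and Cbfb lay within their spread. After stimulation Cbfb stood above Runx1 in both genotypes, at 837 ± 22.3 against 270.3 ± 39.4 in WT and 738 ± 42.9 against 269.7 ± 16.6 in labelled cells.

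The make-up of Runx RNA differed with these levels. Runx2 made up 19.4% and 19.9% of the summed Runx level per kb in unstimulated WT and 7.43% and 3.94% in labelled libraries. In stimulated cells its share was 16.7% and 15.3% in WT against 11.3% and 6.81%. No labelled library reached the share of any WT library, and shares within a library are free of the scaling between libraries. Runx1 made up 52.1% and 55.7% in unstimulated WT and 73.9% and 75.1% in labelled libraries, and 54.1% and 51.4% against 52.5% and 63.4% after stimulation, where the groups overlapped. The Runx sum per kb stood at 1.34 and 1.57 times Cbfb in unstimulated WT and 1.18 and 1.79 in labelled libraries. After stimulation it was 0.672 and 0.554 in WT and 0.694 and 0.577 in labelled libraries. All 4 stimulated libraries lay below 1 and all 4 unstimulated ones above it, with the genotypes overlapping. These shares and ratios were chosen after the levels were seen and were not tested.

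**Figure D4:**
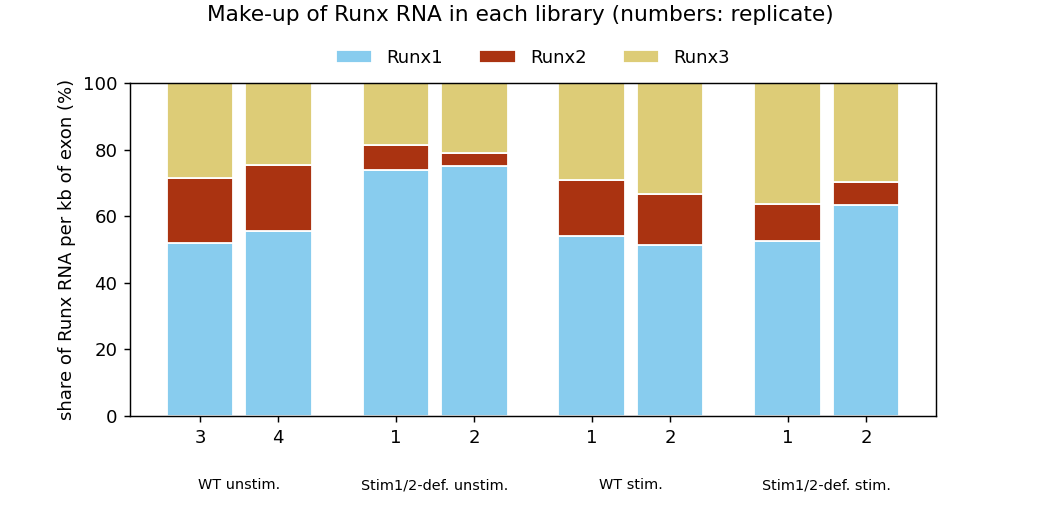
Share of Runx1, Runx2 and Runx3 in the summed Runx RNA per kb of exon (y axis, percent) in each of the 8 libraries, with replicate numbers on the x axis. Runx2 takes 15.3% to 19.9% in the 4 WT libraries and 3.94% to 11.3% in the 4 labelled ones.

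Transcripts that overlap or adjoin Runx2 were low. Supt3, which overlaps 37680 bases of Runx2 on the other strand, had 130.6 and 129.99 normalized counts in unstimulated WT against 91.2 and 90.8, and was not called (limma, adjusted p = 0.406). Runx2os2 had 96.0 and 129 against 40.9 and 32.1 unstimulated (limma, adjusted p = 0.0745), and 80.3 and 41.0 against 37.3 and 28.7 stimulated. Runx2os1 had 10.8 and 13.3 against 5.24 and 0, and 32.0 and 25.8 against 0 and 0.84. Runx2os3, which overlaps 737 bases of Runx2, had 2.16 and 8.86 against 4.19 and 0 unstimulated and 6.24 and 2.28 against 2.38 and 0.84 stimulated, at 8 reads or fewer, so that the genotypes overlapped in both states. Supt3, Runx2os1 and Runx2os2 lay below WT in the labelled libraries in each state, and none of them passed the test.

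For each member the 3 genes with the most similar pattern were sought among the 9147 genes whose mean reached 100 normalized counts, by the root mean square difference of log2 values centred on each gene over the 8 libraries. Foxp3 was nearest to Ikzf2 (0.176), which encodes the Treg factor Helios, then to Tnfrsf13b (0.182), where the median over all genes was 0.651. Runx2 was nearest to Brca1 (0.138), a DNA repair gene, Ece1 (0.204) and the costimulatory ligand gene Cd80 (0.258), with a median of 0.983. Brca1 had 1158 and 1129 normalized counts in unstimulated WT against 318 and 254, and 699.9 and 615 against 447 and 260.0 in stimulated cells, the order that Runx2 showed. Runx1 was nearest to Peli1, Nfatc3 and Sltm (0.0835 to 0.0910, median 0.597), Runx3 to Cenpq, Socs6 and Adprm (0.0724 to 0.0903, median 0.502) and Cbfb to Helq, Rsrc1 and Cers2 (0.0679 to 0.0723, median 0.499). Among the members themselves the nearest pair was Foxp3 and Cbfb (0.431) and the farthest Runx1 and Runx2 (0.979). A gene with no change would lie 0.327 from Cbfb and 0.521 from Foxp3, so 0.431 does not show a shared pattern. These are descriptions over 8 libraries that share depth, lane and groups.

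The genes around the members were taken from lists written from general knowledge, with earlier results of these data known. The study had named some of them as lower from these samples, such as Rora, Irf4 and Itgae. No count of calls in these lists is therefore independent evidence. Among Foxp3 protein partners, 4 of 25 were called lower and 0 higher in unstimulated labelled cells, with a median of -0.32 in log2 where the median of all genes was -0.01. Rora, a nuclear receptor, had 24477 and 25307 normalized counts in WT against 2412 and 10125. Irf4, a factor of effector Treg cells, had 3543 and 3498 against 862 and 1029.7, and was 3.73-fold lower. Ezh2, the Polycomb methyltransferase, and Nfatc1, the calcium-regulated factor, were 2.58- and 1.74-fold lower. The adjusted p of the 4 ranged from 0.00880 to 0.0480 (limma). Called lower were 4 of 25 by limma, 1 of 25 by edgeR and 7 of 25 by DESeq2. The shares of all genes called lower were 3.35%, 2.29% and 5.51% in these tools. In stimulated cells limma and edgeR called none of the partners and DESeq2 called 1 lower, against 2.15% of all genes.

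Among 23 co-regulators of Runx and Cbfb tested, 2 were called lower and 1 higher in unstimulated labelled cells (limma), with a median of 0.08, where 3.35% and 1.38% of all genes were called lower and higher. The kinases Cdk6 and Pim1 were 2.35- and 2.22-fold lower, and the cyclin gene Ccnd3 was 2.67-fold higher, at 413 and 445 against 1390.4 and 947 (limma, adjusted p = 0.0111, 0.0498 and 0.0125). Of 24 regulators of the Foxp3 locus, Uhrf1, a partner of DNA maintenance methylation, was 6.63-fold lower, Nfatc1 lower as given above, and Bach2, a repressor of effector differentiation, 1.78-fold higher, at 2514 and 2477 against 3691 and 5361 (limma, adjusted p = 0.0189 for Uhrf1 and 0.0454 for Bach2). In stimulated cells limma and edgeR called none of either list. DESeq2 called none of the co-regulators and 1 lower and 2 higher of the regulators, against 2.15% and 1.8% of all genes.

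Genes that Treg cells raise with Foxp3 had the most calls of the 6 lists. In unstimulated cells limma called 13 of 22 lower and 0 higher, against 3.35% and 1.38% of all genes. The median of the list was -1.38 in log2. The study named many of these genes from these samples, so the count is not independent evidence of a direction. Klrg1, a receptor of differentiated Treg cells, had 2136 and 1715 normalized counts in WT against 155 and 20.03. The cytokine gene Il10 had 885 and 923 against 50.3 and 56.1, the inhibitory receptor gene Tigit 3247 and 2959 against 321 and 200.3, and Tnfrsf9 (4-1BB) 3118 and 2953 against 363 and 353. These genes were picked because they were called with their libraries apart, so neither is a further result. Their adjusted p were 0.0252, 0.00106, 0.0203 and 0.000125 (limma). Without WT unstimulated replicate 3 or 4, 3 of the 22 were called lower in each fit. Without labelled replicate 1 or 2 the median of the list was -1.205 or -1.62 in log2. The labelled library kept in each of these fits still held myeloid and B cell transcripts, and their part was not tested. In stimulated cells Itgae, Il10 and Tnfrsf9 were called lower, by 6.67-, 5.05- and 2.56-fold (limma, adjusted p = 0.0392, 0.0392 and 0.0356). These were 3 of 22, where limma called 0.11% of all genes lower. DESeq2 called 7 of 22 lower, against 2.15% of all genes, and edgeR none of the list. In the test of a difference between both states limma called no gene of the 6 lists, while DESeq2 called the costimulatory receptor gene Icos and Tnfrsf9 of the genes raised with Foxp3 (adjusted p = 5.45e-07 and 7.61e-05), and Irf4 and Rel of the partners (0.0357 and 0.0188). The count of 3 in stimulated cells was 0 without WT stimulated replicate 1 or 2 or labelled stimulated replicate 2, and 7 without labelled stimulated replicate 1. Without WT unstimulated replicate 3 or 4 no gene of the other 5 lists was called between unstimulated genotypes.

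Of 14 genes that Foxp3 represses, 2 were called higher and 0 lower in unstimulated labelled cells, with a median of 0.80. Over all genes limma called 1.38% higher and 3.35% lower there, with a median of -0.01. Themis, a signalling protein of the T cell receptor, had 817 and 841 against 2406 and 1991 and was 2.64-fold higher. Actn1, an actin crosslinker, had 652 and 561 against 1462 and 1567 and was 2.499-fold higher (limma, adjusted p = 0.00971 and 0.0223). In stimulated cells limma and edgeR called none of the list. DESeq2 called 1 lower and 2 higher, where it called 2.15% and 1.8% of all genes. Of 22 target genes of Runx and Cbfb in T cells, 2 were called lower and 0 higher in unstimulated cells. The median of these targets was -0.35, where 3.35% of all genes were called lower and 1.38% higher. Itgae, which encodes the integrin CD103, had 3859 and 3408 against 650.1 and 310 and was 8.06-fold lower. Gzmb, granzyme B, had 1714 and 950 against 156 and 115 and was 9.46-fold lower (limma, adjusted p = 0.00803 and 0.0234). In stimulated cells limma called Itgae alone of this list, edgeR none and DESeq2 3 genes lower. Over all genes limma called 0.11% lower there and DESeq2 2.15%. Itgae had 1218 and 1609 against 322 and 136.

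**Figure D5:**
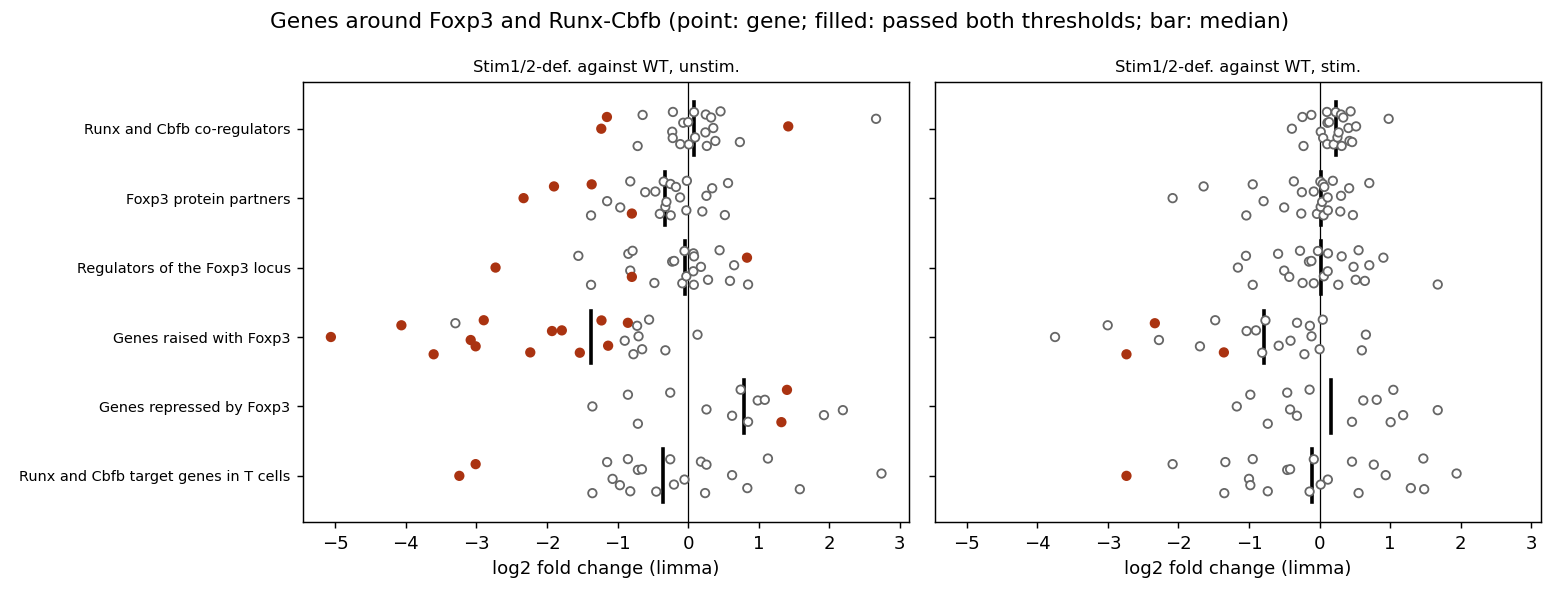
Log2 fold changes (x axis, limma) of Stim1/2-deficient against WT libraries as labelled, for the genes of 6 lists (y axis), in unstimulated (left) and stimulated (right) cells. Each point is a gene, filled points passed both thresholds, and bars mark medians. Genes raised with Foxp3 have their median at -1.38 on the left and -0.79 on the right, and 13 and 3 filled points.

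Stimulation gave calls in both directions in most of these lists. The 2 genotype and 2 stimulation contrasts share libraries, so each is given on its own. Over all genes limma called 13.1% lower and 10.2% higher in WT, and 12% and 13% in labelled cells. In WT, 8 of 24 regulators of the Foxp3 locus were called lower and 0 higher, among them the activity-induced receptor gene Nr4a2, with 7056 and 8030.0 normalized counts before stimulation and 268 and 199 after it (limma, log2 -5.02 ± 0.60, adjusted p = 0.000904). In labelled cells 6 were called lower and 1, Uhrf1, higher. Of the genes raised with Foxp3, 6 were called higher and 2 lower in WT and 12 higher and 1 lower in labelled cells. Il2ra (CD25), itself used in the sort, rose in WT from 11360.3 and 10408 to 42365 and 50119 (limma, adjusted p = 0.000251), and Socs2, a feedback inhibitor of cytokine signalling, by 3.27 ± 0.27 in log2 in labelled cells (adjusted p = 0.000182). Among the 22 Runx and Cbfb targets 7 were called lower and 5 higher in WT, and 3 lower and 6 higher in labelled cells. Il2, a gene that Foxp3 and Runx1 hold down in Treg cells, rose from 17.3 and 17.7 in WT and from 19.9 and 4.01 in labelled cells, by 5.85 ± 0.89 and 6.24 ± 0.89 in log2 (limma, adjusted p = 0.00250 and 0.00144).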

How the data were processed

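The members and gene lists were chosen with earlier results of these data known. As deposited, each signal value is a gene's read count after the authors' division by the size factor of its library. The methods name TruSeq RNA v2 libraries, Bowtie on NCBIM37, Picard, HTSeq and DESeq2, whereas the labels name a stranded TruSeq kit and the submitters' processing notes name bcl2fastq 1.8.4, STAR 2.7, DESeq2 and mm10. This conflict was not resolved. Of 52459 symbols, 35095 matched the GRCm38.p6 RefSeq table, from which coordinates and promoters were taken, and 28801 the NCBIM37 annotation, from which exon lengths were taken. Whole reads were recovered by dividing by the value of 1 read, and 100% of values came out whole within 0.006. One read was worth 0.759 to 1.48 normalized counts. P-values rest on the spread between the 2 pooled samples of a group. In the main limma fit this was 1 spread per gene, taken over all 4 groups and moderated by the other genes.

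Values were fitted as log2(value + 1) with limma 3.58.1 (trend, 1 model of 4 groups, R 4.3.3), where the mean reached 10. Fold changes are on that scale, and standard errors come from that fit. The methods name DESeq2, which needs counts, so limma was the main test of these normalized values. Tests were 2-sided with Benjamini-Hochberg adjustment over all genes within a contrast. Calls needed both an adjusted p below 0.05 and a change above 1.5-fold. Alternatives were edgeR 4.0.16 and DESeq2 1.42.0 on recovered reads, pseudocounts of 0.1 and 5, other filters and scalings, fits to 4 libraries, a block for the replicate number, a threshold of 2-fold and each library left out. Genes of the lists are named where they were called and their libraries did not overlap, at most the 4 with the greatest change per direction. Genes that overlap or adjoin Foxp3 and Runx2 were chosen after seeing the data, as were the DESeq2 calls named for the difference between states. On simulated counts for the unstimulated comparison (15309 genes, 200 changed 4-fold), limma recovered 168 among 181 calls, edgeR 171 among 182 and DESeq2 181 among 220. Where nothing was changed (stimulated comparison) they made 0, 0 and 14 calls. The simulation gave each gene the same spread in every group. In the data the unstimulated labelled libraries differed more from each other (chi-square per degree of freedom 78.5) than the unstimulated WT ones (11.15). The simulated counts therefore do not give the error of the calls in these data. One of the genes most like Foxp3 in pattern is not reported here.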

Additional observations from a re-analysis of the deposited data

How the results depend on the processing

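The counts of members called moved in these settings. In unstimulated cells 2 members, Foxp3 and Runx2, were called with a mean of at least 100, with DESeq2 and with the mean of both genotype contrasts (added after seeing the data). All genes called numbered 713 and 1338 in the first 2 of these settings, against 730 in the main fit. The mean of both contrasts called 840 lower and 445 higher. Other filters also change how many genes are tested. For stimulation in WT 1 was called, Runx1, with a pseudocount of 0.1, every gene above 0, equal upper quartiles or edgeR. With equal totals it was Cbfb, and 0 were called at 2-fold. In this order all genes called numbered 3447, 2828, 3514, 3439, 5232 and 2732, against 3593 in the main fit. For stimulation in labelled cells 1 was called, Runx1, with every gene above 0, equal upper quartiles or the 4 libraries alone. With equal totals it was Cbfb, and 0 were called at 2-fold. In this order all genes called numbered 3424, 4463, 1752, 4868 and 2900, against 3852 in the main fit. The cause was not tested. With 1 library left out the count ranged from 0 to 2 between unstimulated genotypes, 0 to 1 between stimulated ones, was 0 in each fit for the interaction and for stimulation in WT, and 1 to 2 for stimulation in labelled cells. Without labelled replicate 1 Runx2 stood at -1.43 in stimulated cells, and without labelled replicate 2 Runx3 stood at -0.87 in unstimulated cells (log2, limma). All genes called between unstimulated genotypes numbered 730 in limma, 484 in edgeR and 1338 in DESeq2, and between stimulated ones 42, 1 and 550.

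Same-numbered libraries deviated together with r = 0.167 in stimulated WT and labelled cells and 0.257 in labelled cells before and after stimulation, and the labels do not pair them. With the replicate number as a block, 1 member, Foxp3, was called between stimulated genotypes (limma, adjusted p = 0.0209), and 1, Runx1, for stimulation in labelled cells. Of the 15419 genes tested, the block fit called 393 between stimulated genotypes, where the main fit called 42. For stimulation in labelled cells it called 4094, where the main fit called 3852. The block left Foxp3 at -0.82, and between stimulated genotypes it called 9 lower and 2 higher of the 22 genes raised with Foxp3, 3 lower of the partners, 1 lower and 2 higher of the regulators of the Foxp3 locus and of the genes Foxp3 represses, and 3 lower and 1 higher of the Runx and Cbfb targets. Unstimulated genotypes share no numbers.

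Signs turned for small differences. Runx1 between stimulated genotypes was -0.00698 with equal totals, -0.0255 with equal upper quartiles, -0.0104 in edgeR and -0.00249 in DESeq2. The interaction of Cbfb was -0.0747 with equal totals and -0.227 with equal upper quartiles, and that of Foxp3 -0.129 with the latter. Runx3 under stimulation in WT was 0.0761 with equal totals. With equal upper quartiles, which moved the median of all genes by 0.25 between unstimulated genotypes and by -0.41 for stimulation in labelled cells, Cbfb was 0.0161 in the former, and Foxp3, Runx2 and Runx3 were -0.103, -0.301 and -0.262 in the latter. With 1 library left out, signs turned between the lowest and highest of the fits for the interaction of Foxp3 (-0.195 to 0.502) and Cbfb (-0.113 to 0.223), Runx1 and Runx3 between stimulated genotypes (-0.147 to 0.152 and -0.2705 to 0.1601), Foxp3 under stimulation in WT (-0.0835 to 0.3999), and Foxp3, Runx2 and Runx3 under stimulation in labelled cells (-0.0368 to 0.6601, -0.323 to 0.547 and -0.0686 to 0.371).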
